A study of Homo sapiens with 12 samples.

Results

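The protein kinase C family was read in PC9 cells as 10 genes, which were PRKCA, PRKCB, PRKCD, PRKCE, PRKCH, PRKCI, PRKCQ and PRKCZ together with the protein kinase D genes PRKD1 and PRKD2. The genes came from a fixed list, and every probe set that the platform annotation assigns to 1 of these symbols alone was taken. That gave 30 of the 41091 probe sets tested and 10 of the 19775 genes tested. For each gene the main probe set was the one with the highest mean over the 12 arrays, and all others are described beside it.

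PC9 is a human lung adenocarcinoma line that depends on mutant EGFR, the receptor kinase that erlotinib inhibits. A stable line with a GFP vector was set against a stable line with the miR-371 precursor, called pre-miR-371 cells here. Both lines received DMSO or 2 µM erlotinib for 24 h, and each of the 4 groups has 3 Affymetrix arrays. The methods list a scramble hairpin in a lentiviral copGFP vector among their constructs and do not tie it to the GFP vector line of these arrays. Each kind is represented by 1 stable line, so an effect of the precursor and a difference between the particular lines cannot be told apart. The labels do not say whether the 3 arrays of a group came from separate cultures, so p-values cover only the spread among these arrays, which may be technical. RNA was taken in bulk, so fewer expressing cells and less RNA per cell cannot be told apart.

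Protein kinase C enzymes are serine and threonine kinases that carry signals from lipid turnover at the membrane. Phospholipase C splits a membrane lipid into diacylglycerol and inositol trisphosphate. The conventional isoforms, PRKCA and PRKCB among them, need both diacylglycerol and calcium. The calcium-independent isoforms PRKCD, PRKCE, PRKCH and PRKCQ answer to diacylglycerol alone, and the atypical isoforms PRKCI and PRKCZ answer to neither and work in polarity and scaffold complexes. The protein kinase D enzymes bind diacylglycerol and are themselves phosphorylated by protein kinase C. The study followed PKCα, the product of PRKCA, as a part of phospholipase signalling in drug tolerance, which is the question behind the comparison of the isoforms.

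The precursor that separates the lines gives rise to a pair of mature miRNAs, shown here because they define the groups. Sequences are those of RefSeq on GRCh38.p14, 5′ to 3′, with the seed (bases 2 to 8) in capitals.
hsa-miR-371a-3p, chr19:53787716-53787738, plus strand: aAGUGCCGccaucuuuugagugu
hsa-miR-371a-5p, chr19:53787680-53787699, plus strand: aCUCAAACugugggggcacu
The arms have different seeds. The design text names the 3p arm and the sample labels name only the precursor.

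Expression is given on the log2 scale of the deposited values, with array medians between 4.31 and 4.41, and precision is limited by the number of arrays. Of the main probe sets, 7 had a mean over 6 and those of PRKCB, PRKCQ and PRKD1 did not; whether these 3 read above background was not tested. DUSP6, a phosphatase gene switched on by ERK signalling, checks the drug label: its log2 fold change with erlotinib was -5.91 with the GFP vector and -6.00 with the precursor. The 6 epithelial markers had group means of 10.7 to 13.7. The lung adenocarcinoma markers NKX2-1, NAPSA and SFTPB stayed between 4.27 and 5.81. Leukocytes express PRKCB and PRKCQ strongly, and the 5 leukocyte markers measured had group means of 2.78 to 5.46, with PTPRC, the gene of CD45, at 2.78 to 2.86. Among the 6 fibroblast markers only COL1A1 had group means over 6, at 6.83 to 7.07.

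**Figure D1:**
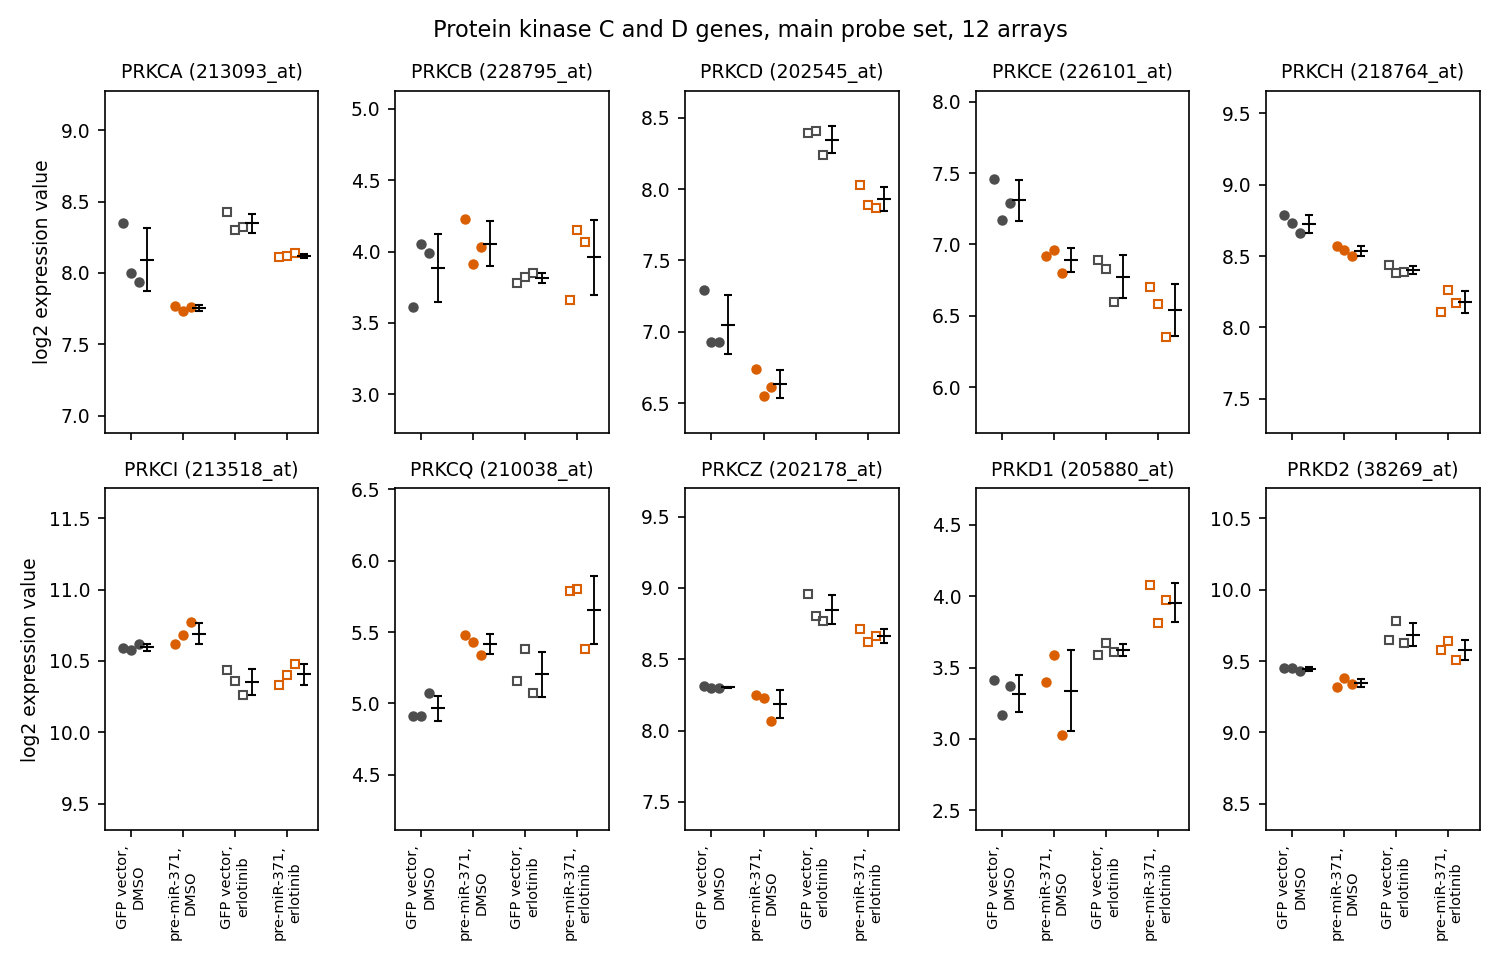
Log2 expression value of the main probe set of each gene on all 12 arrays; each panel spans the same log2 range, points are arrays, and the bar to their right is the mean with the SD of 3 arrays. PRKCD rose from 7.05 to 8.35 with erlotinib in GFP vector cells and from 6.63 to 7.93 in pre-miR-371 cells, and no other of the 10 genes moved as far.

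The first question was how the isoforms responded to EGFR inhibition. Of the 10 genes, 7 changed in the GFP vector line, 4 up and 3 down, where 49.8% of all genes changed, 26.5% up and 23.4% down (limma, adjusted p under 0.05 over all genes). In the pre-miR-371 line 8 changed, 5 up and 3 down, where 47% of all genes did, 24.8% up and 22.2% down. PRKCA, PRKCD, PRKCZ and PRKD2 rose and PRKCE, PRKCH and PRKCI fell in both lines, and PRKD1 rose in pre-miR-371 cells. The 10 genes had a median log2 fold change of 0.24 in the first line and 0.23 in the second, beside 0.003 and -0.03 for all genes. With the methods' added limit of a fold over 1.5, PRKCD alone remained in GFP vector cells, where 25.8% of all genes passed, and PRKCD and PRKD1 in pre-miR-371 cells, where 21.9% did. These counts, directions and medians rest on the main probe sets. With the mean of all probe sets 3 genes rose and 4 fell in each line, where 48% and 45.1% of all genes changed.

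PRKCD showed the largest change of the 10 genes in both lines. Its product is a calcium-independent isoform known for roles in apoptosis and growth arrest. The single probe set 202545_at read 7.29, 6.93 and 6.93 on the DMSO arrays of GFP vector cells and 8.39, 8.41 and 8.24 on their erlotinib arrays. The corresponding values of pre-miR-371 cells were 6.74, 6.55 and 6.61 in DMSO and 8.03, 7.89 and 7.87 in erlotinib. All erlotinib arrays were thus above all DMSO arrays, across lines too. The log2 fold change was 1.30 in each line (SE 0.10 in each), a 2.46-fold rise, with adjusted p = 2.50e-07 and 3.24e-07 by limma.

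Of the other calcium-independent isoforms, PRKCE and PRKCH fell where PRKCD rose. PRKCQ had a smaller positive value in both lines, 0.24 in each, which did not pass in the main fit. PRKCE, whose product is linked to growth and survival signalling, read 7.46, 7.17 and 7.29 in DMSO and 6.89, 6.83 and 6.60 in erlotinib in GFP vector cells. In pre-miR-371 cells it read 6.92, 6.96 and 6.80 in DMSO and 6.70, 6.58 and 6.35 in erlotinib. The groups did not overlap within either line. PRKCE fell by 0.53 on the log2 scale (SE 0.11, adjusted p = 0.00106) in GFP vector cells and by 0.35 (SE 0.11, adjusted p = 0.0179) in pre-miR-371 cells. The second call was lost without pre-miR-371 DMSO replicate 1 (adjusted p = 0.0512) or 2 (0.0629) and without pre-miR-371 erlotinib replicate 3 (0.0814). It was also lost with the methods' t-test after Benjamini-Hochberg adjustment (adjusted p = 0.0817).

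PRKCH, an isoform found mainly in epithelia, read 8.79, 8.73 and 8.66 in DMSO and 8.44, 8.38 and 8.39 in erlotinib in GFP vector cells. The pre-miR-371 arrays read 8.57, 8.54 and 8.50 in DMSO and 8.11, 8.26 and 8.17 in erlotinib. Erlotinib arrays lay below DMSO arrays in both lines. The fall was 0.32 (log2 fold change -0.32, SE 0.06, adjusted p = 0.000421) and 0.36 (-0.36, SE 0.06, adjusted p = 0.000201). A further probe set of PRKCH, 206099_at, fell as well, with log2 fold changes of -0.44 and -0.38, and 230124_at did not pass in either line.

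PRKCQ, best known from T-cell receptor signalling, did not pass the test for erlotinib. Its log2 fold change was 0.24 in each line (95% interval -0.01 to 0.49 with the GFP vector, -0.01 to 0.48 with the precursor), with adjusted p = 0.105 and 0.110. Without pre-miR-371 erlotinib replicate 3, which read 5.38 where its partners read 5.79 and 5.80, the value in pre-miR-371 cells was 0.37 (adjusted p = 0.00626), and that in GFP vector cells passed as well (adjusted p = 0.0333). With array weights on all 12 arrays both values passed too (0.26 and 0.29, adjusted p = 0.0367 and 0.0282).

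The atypical pair moved in opposite directions. PRKCZ, whose product PKCζ works with polarity proteins and the scaffold SQSTM1, read 8.31, 8.30 and 8.30 in DMSO and 8.96, 8.80 and 8.77 in erlotinib in GFP vector cells. In pre-miR-371 cells its single probe set 202178_at read 8.25, 8.23 and 8.07 in DMSO and 8.71, 8.62 and 8.66 in erlotinib. No DMSO array reached the lowest erlotinib array in either line. PRKCZ rose by 0.54 (SE 0.07, adjusted p = 1.95e-05) and 0.48 (SE 0.07, adjusted p = 6.64e-05) on the log2 scale.

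PRKCI encodes PKCι, the atypical isoform named as an oncogene in lung cancer. The main probe set read 10.59, 10.58 and 10.62 in DMSO and 10.44, 10.36 and 10.26 in erlotinib in GFP vector cells. Values in pre-miR-371 cells were 10.62, 10.68 and 10.77 in DMSO and 10.33, 10.40 and 10.48 in erlotinib. The groups were separate in both lines, though the shift was small. PRKCI fell by 0.24 (SE 0.07, adjusted p = 0.00775) and by 0.29 (SE 0.07, adjusted p = 0.00298). All 3 probe sets of PRKCI fell in both lines, 209678_s_at by 0.39 and 0.35 and 209677_at by 0.65 and 0.50. After quantile normalization was repeated, the main probe set changed by -0.16 in GFP vector cells (adjusted p = 0.0544).

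PRKD2 rose in both lines and PRKD1 in pre-miR-371 cells. PRKD2, the main probe set 38269_at, read 9.45, 9.45 and 9.43 in DMSO and 9.65, 9.78 and 9.63 in erlotinib in GFP vector cells. Its values in pre-miR-371 cells were 9.32, 9.38 and 9.34 in DMSO and 9.58, 9.64 and 9.51 in erlotinib. Erlotinib arrays were higher in both lines without overlap, by 0.24 (SE 0.06, adjusted p = 0.00382) and 0.23 (SE 0.06, adjusted p = 0.00569). With the mean of its 3 probe sets the values were 0.12 (adjusted p = 0.113) and 0.07 (adjusted p = 0.393). Neither 209282_at nor 241669_x_at passed alone.

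PRKD1, at low values, read 3.41, 3.17 and 3.37 in DMSO and 3.59, 3.67 and 3.61 in erlotinib in GFP vector cells, and 3.40, 3.59 and 3.03 in DMSO and 4.08, 3.81 and 3.97 in erlotinib in pre-miR-371 cells. The arrays did not overlap within a line. The log2 fold change was 0.31 (SE 0.13, adjusted p = 0.0609) in GFP vector cells, short of the test, and 0.62 (SE 0.13, adjusted p = 0.00123) in pre-miR-371 cells. Without pre-miR-371 DMSO replicate 2 or 3, the first of these passed (adjusted p = 0.0327 and 0.0135), as it did with only the groups compared in the fit (0.0152) and with array weights (0.0115). With the methods' t-test after Benjamini-Hochberg adjustment the first passed (adjusted p = 0.0408) and the second was lost (0.0621). The other probe set, 217705_at, did not pass in either line. The mean of both passed in each line, at 0.18 (adjusted p = 0.0184) and 0.31 (adjusted p = 0.000687).

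**Figure D2:**
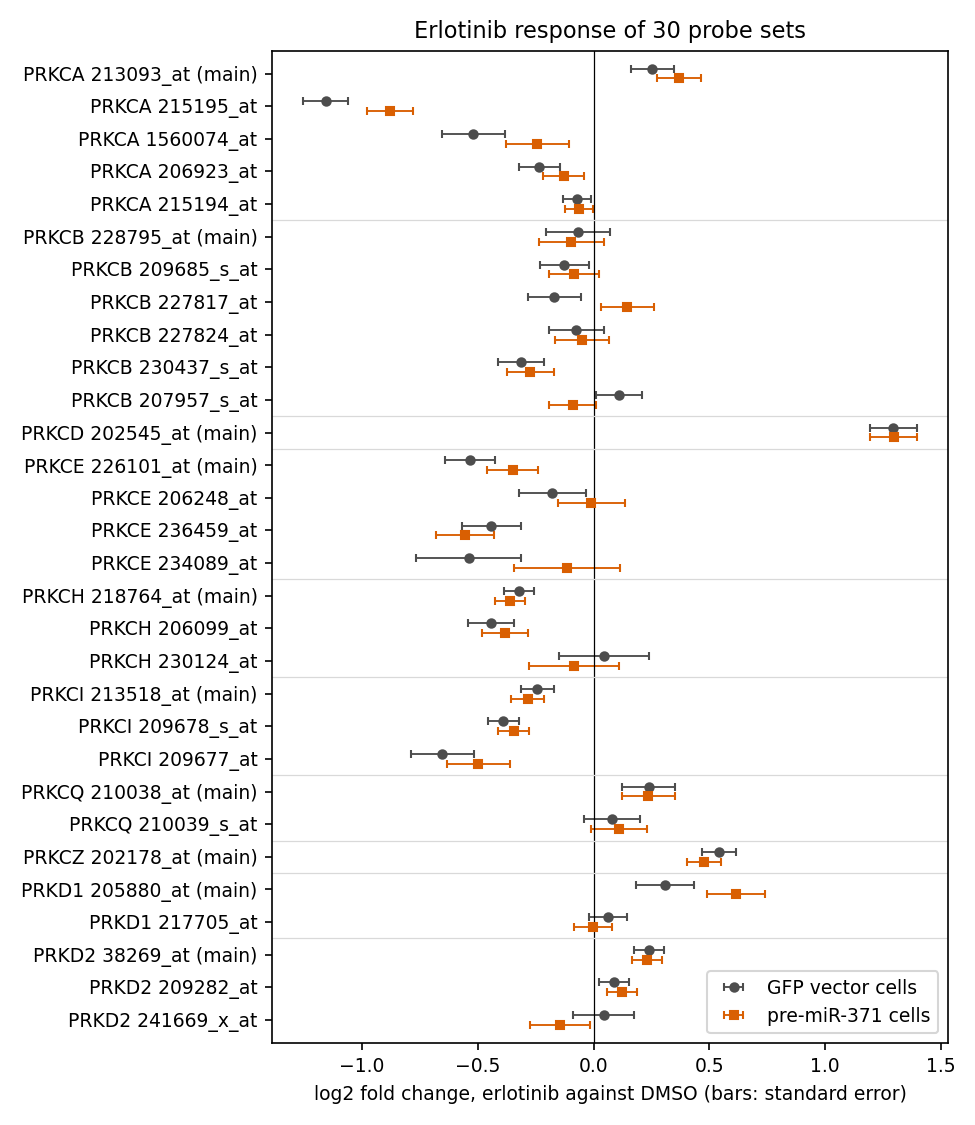
Log2 fold change of erlotinib against DMSO for all 30 probe sets, with the standard error from limma, in GFP vector cells (circles) and pre-miR-371 cells (squares). PRKCA holds probe sets on both sides of 0, from 0.25 and 0.37 for 213093_at to -1.16 and -0.88 for 215195_at.

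PRKCA was the gene whose probe sets disagreed in direction. The main probe set, 213093_at, read 8.35, 8.00 and 7.94 in DMSO and 8.43, 8.30 and 8.32 in erlotinib in GFP vector cells. The values in pre-miR-371 cells were 7.77, 7.73 and 7.76 in DMSO and 8.11, 8.12 and 8.14 in erlotinib. Erlotinib arrays were above DMSO arrays in pre-miR-371 cells, whereas in GFP vector cells DMSO replicate 1 overlapped the erlotinib arrays. The rise was 0.25 (SE 0.09, adjusted p = 0.0347) in GFP vector cells and 0.37 (SE 0.09, adjusted p = 0.00470) in pre-miR-371 cells.

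The call of PRKCA in GFP vector cells was the least stable of the erlotinib calls there. It was lost without GFP vector DMSO replicate 2 (adjusted p = 0.127) or 3 (0.142), without GFP vector erlotinib replicate 1 (0.115) or 3 (0.0592), with only those groups in the fit (0.110), and with arrays centred on their medians (0.115). The methods' t-test after Benjamini-Hochberg adjustment did not keep it either (adjusted p = 0.228). Without GFP vector DMSO replicate 1 the log2 fold change was 0.38 (adjusted p = 0.000180).

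The probe set 215195_at of PRKCA went the other way. It read 6.48, 6.18 and 6.12 in DMSO and 5.08, 5.19 and 5.03 in erlotinib in GFP vector cells. Pre-miR-371 arrays read 5.99, 5.88 and 5.88 in DMSO and 5.17, 4.98 and 4.97 in erlotinib. Every erlotinib array was below every DMSO array, across lines too. It fell by 1.16 (SE 0.10, adjusted p = 4.56e-07) and 0.88 (log2 fold change -0.88, SE 0.10, adjusted p = 7.70e-06), with adjustment over all 41091 probe sets.

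The remaining 3 probe sets of PRKCA had no rise. In GFP vector cells 1560074_at fell by 0.52 (adjusted p = 0.00671) and 206923_at by 0.23 (adjusted p = 0.0457), and neither passed in pre-miR-371 cells. The probe set 215194_at, which the annotation ties to the same mRNA record as 215195_at, passed in neither line. It read 3.29 to 3.47 over all 12 arrays, while 215195_at read 4.97 to 6.48. With the mean of the 5 probe sets the direction of PRKCA reversed, to -0.35 (adjusted p = 5.87e-05) in GFP vector cells and -0.19 (adjusted p = 0.00687) in pre-miR-371 cells. Which transcripts of PRKCA each probe set reads was not tested.

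**Figure D3:**
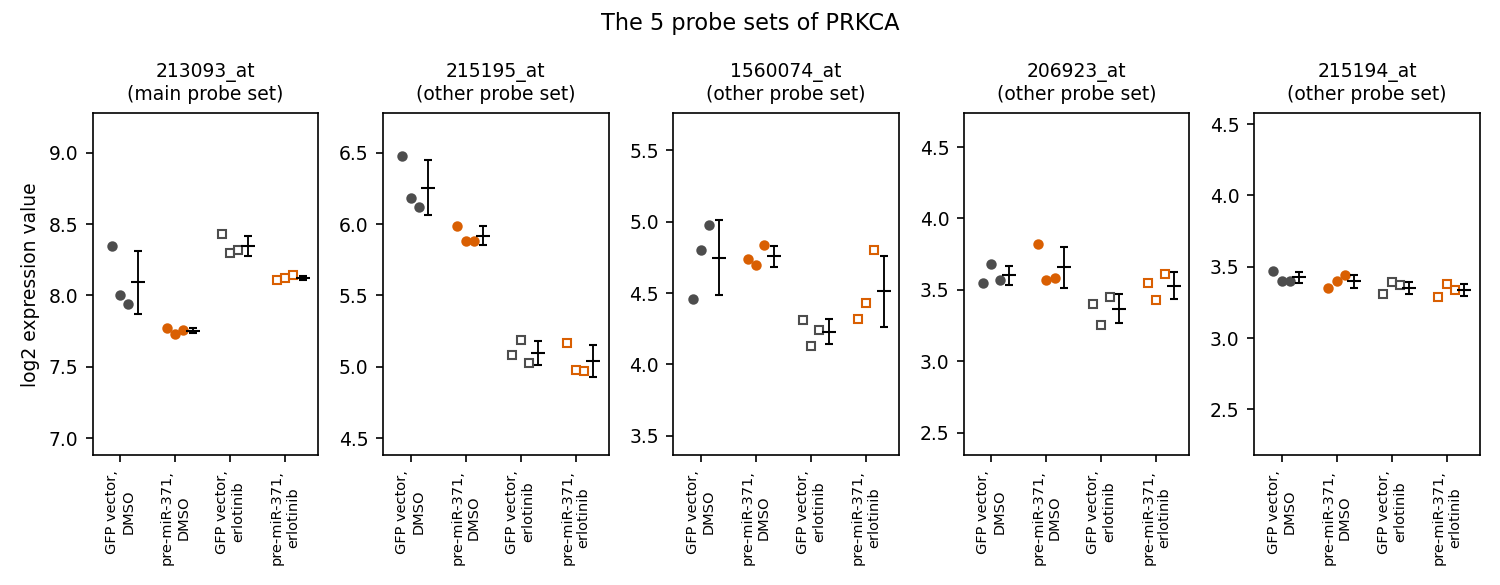
Log2 expression value of the 5 probe sets of PRKCA on all 12 arrays; panels span the same log2 range, points are arrays, and bars are the mean with the SD of 3 arrays. The main probe set was higher in erlotinib, 215195_at was lower on every erlotinib array, and 215194_at stayed between 3.29 and 3.47.

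The gap between probe sets was tested on the difference between the main probe set and each other probe set of the same gene, array by array, with an exact two-sided permutation test within lines over 20 pairs. For PRKCA, the response of the main probe set exceeded that of 215195_at by 1.33 on the log2 scale (1.41 with the GFP vector, 1.25 with the precursor). It exceeded that of 1560074_at by 0.69, of 206923_at by 0.49 and of 215194_at by 0.38. Each of these 4 had exact p = 0.005, the smallest that the 400 relabellings allow, and adjusted p = 0.0167. Such a gap also passed for PRKCI against 209677_at (0.31, adjusted p = 0.0167), PRKD1 against 217705_at (0.43, adjusted p = 0.0167) and PRKD2 against 209282_at (0.13, adjusted p = 0.0286), which made 7 of 20 pairs. In 3 of these 7 the other probe set had a mean below the array medians, 206923_at at 3.54, 215194_at at 3.38 and 217705_at at 2.36. Whether these read above background was not tested, so those 3 gaps may hold the response of the main probe set alone and are not read as disagreement between probe sets. For PRKD1 the main probe set 205880_at was itself below the array medians, at 3.56. The probe set 1560074_at of PRKCA, at 4.56, was little above them. The 4 pairs of PRKCA passed whichever array was left out. The pair of PRKCI was lost without GFP vector erlotinib replicate 2 (adjusted p = 0.0571). That of PRKD1 was lost without pre-miR-371 DMSO replicate 3, GFP vector erlotinib replicate 2 or any 1 pre-miR-371 erlotinib array (0.05 to 0.0857), and that of PRKD2 without any 1 DMSO array or pre-miR-371 erlotinib replicate 2 (0.0571 to 0.113). Opposite directions, each past the limma test, were present in PRKCA alone among these genes.

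Other probe sets of the family added few further changes. Of the 30 probe sets, 15 passed in GFP vector cells, 4 higher and 11 lower, where 43.7% of all probe sets did. In pre-miR-371 cells 14 passed, 5 higher and 9 lower, where 40% of all probe sets did. Most that passed were thus lower, while more main probe sets rose than fell. Several of the lower probe sets belong to the same gene, and the shares of all probe sets by direction are not given here. The split is therefore not read as a trait of the family. The conventional isoform PRKCB, at group means of 3.82 to 4.06 on its main probe set, had log2 fold changes of -0.07 (95% interval -0.37 to 0.24) and -0.10 (-0.40 to 0.21). Of its 6 probe sets, 230437_s_at passed, at -0.31 (adjusted p = 0.0217) and -0.27 (adjusted p = 0.0457), from group means of 2.78 to 3.18. For PRKCE, 236459_at fell with the main probe set, by 0.44 (adjusted p = 0.0122) and 0.56 (adjusted p = 0.00311). Its other probe sets, 206248_at (-0.18 and -0.01) and 234089_at (-0.54 and -0.11), passed in neither line.

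PRKCA was then compared in response with each of the 9 other genes, main probe set against main probe set, by the same exact permutation test. It rose less than PRKCD, by 0.98 (difference -0.98, adjusted p = 0.0113), and less than PRKCZ (difference -0.20, adjusted p = 0.018). Its response lay above those of PRKCE by 0.75, PRKCH by 0.65 and PRKCI by 0.58 (adjusted p = 0.0113 for each). The gaps to PRKCB (0.39, adjusted p = 0.075), PRKD1 (-0.15, 0.283), PRKD2 (0.08, 0.36) and PRKCQ (0.07, 0.545) did not pass. Without GFP vector DMSO replicate 1 the gaps to PRKCB (0.52, adjusted p = 0.009) and PRKD2 (0.14, adjusted p = 0.045) passed. The difference from PRKCZ was lost without GFP vector erlotinib replicate 1 or 2 (adjusted p = 0.072 for each) or 3 (0.054). All of these values rest on 213093_at. With the mean of all probe sets the gaps to PRKCE (0.07, adjusted p = 0.264) and PRKCH (-0.0096, adjusted p = 0.88) were lost. Those to PRKCB (-0.18), PRKCQ (-0.43) and PRKD2 (-0.36) turned negative and passed, and that to PRKD1 (-0.51) passed as well (adjusted p = 0.0075 for each).

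The second question was whether the pre-miR-371 line differed from the GFP vector line. In DMSO 3 of the 10 genes differed, with PRKCQ higher and PRKCD and PRKCE lower in pre-miR-371 cells, where 5.25% of all genes differed, 1.62% higher and 3.64% lower. In erlotinib 3 differed, with PRKCQ higher and PRKCD and PRKCH lower, where 16% of all genes differed, 6.5% higher and 9.46% lower. None of the 10 genes passed the added fold limit by limma, where 0.45% of all genes passed in DMSO and 1.24% in erlotinib; at an unadjusted p under 0.05 without that limit, 5 and 6 of the 10 did, beside 22.8% and 30.5% of all genes. The methods' t-test after Benjamini-Hochberg adjustment kept none of the 6 calls (adjusted p = 0.0557 to 0.235), and without adjustment it passed 5 of the 10 in each treatment, beside 18.7% and 26.7% of all genes. The median of the 10 genes was -0.11 in DMSO and -0.14 in erlotinib, beside -0.001 and -0.01 for all genes.

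PRKCD was lower in pre-miR-371 cells in both treatments, on arrays that did not overlap. The log2 fold change was -0.42 (SE 0.10) in each, with adjusted p = 0.0368 in DMSO and 0.0167 in erlotinib. GFP vector DMSO replicate 1 read 7.29 beside 6.93 and 6.93, and without it the value in DMSO was -0.30 (adjusted p = 0.0896). That call was also lost without GFP vector DMSO replicate 2, any 1 pre-miR-371 DMSO array or pre-miR-371 erlotinib replicate 2 (adjusted p = 0.0525 to 0.12). In erlotinib it was lost without GFP vector replicate 1 or 2 or pre-miR-371 replicate 2 or 3 (0.0549 to 0.0652). With only the groups compared in the fit the DMSO call was lost as well (adjusted p = 0.116). Over the 4 groups PRKCD thus ran from 8.35 ± 0.09 in erlotinib-treated GFP vector cells through 7.93 ± 0.08 in erlotinib-treated pre-miR-371 cells and 7.05 ± 0.21 in GFP vector cells with DMSO to 6.63 ± 0.10 (SD, n = 3) in pre-miR-371 cells with DMSO.

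PRKCQ was higher in pre-miR-371 cells in both treatments. The main probe set 210038_at read 4.91, 4.91 and 5.07 in GFP vector cells and 5.48, 5.43 and 5.34 in pre-miR-371 cells with DMSO. With erlotinib it read 5.16, 5.38 and 5.07 in GFP vector cells and 5.79, 5.80 and 5.38 in pre-miR-371 cells. The lines did not overlap in either treatment, though in erlotinib the nearest arrays both read 5.38 after rounding. The log2 fold change was 0.45 (SE 0.11) in each treatment, with adjusted p = 0.0424 in DMSO and 0.0198 in erlotinib.

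The other probe set of PRKCQ, 210039_s_at, gave 0.44 in erlotinib (adjusted p = 0.0372) and 0.41 in DMSO (adjusted p = 0.0840). Those values are adjusted over all probe sets, and on that basis the main probe set missed in DMSO too (adjusted p = 0.0513). Averaged over the treatments, PRKCQ differed by 0.45 (SE 0.08, adjusted p = 0.00277). The DMSO call was lost without GFP vector DMSO replicate 1 or 2, any 1 pre-miR-371 DMSO array or GFP vector erlotinib replicate 1 (adjusted p = 0.0558 to 0.125). The erlotinib call was lost without GFP vector replicate 1 or 3 or pre-miR-371 replicate 1 or 2 (0.0645 to 0.0747), and with only the groups compared in the fit (0.0643).

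PRKCE and PRKCH each passed in 1 treatment. PRKCE differed by -0.42 (SE 0.11, adjusted p = 0.0471) in DMSO and by -0.23 (adjusted p = 0.170) in erlotinib. The DMSO call was lost without any 1 of the 6 DMSO arrays (adjusted p = 0.0629 to 0.16), without GFP vector erlotinib replicate 1 or 2, and without pre-miR-371 erlotinib replicate 2 (0.0543 to 0.0675), and with the mean of its 4 probe sets the value was -0.12. It was also lost with adjustment over every probe set (0.0581), with only the groups compared (0.0771) and after repeated quantile normalization (0.0842). PRKCH differed by -0.19 (adjusted p = 0.0841) in DMSO and by -0.22 (SE 0.06, adjusted p = 0.0228) in erlotinib. Its erlotinib call was lost without any 1 of the 3 GFP vector arrays or pre-miR-371 replicate 1 or 3 (0.0511 to 0.0765), and with the mean of its 3 probe sets the value was -0.07. With only the groups compared it was lost too (0.0610), while its DMSO value passed with trend and robust variance (0.0371), array weights (0.0180) or only genes whose mean reached 6 (0.0211).

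The main probe set of PRKCA was lower in pre-miR-371 cells on separate arrays in both treatments but did not pass in either. The log2 fold change of the main probe set was -0.34 (95% interval -0.54 to -0.14, adjusted p = 0.0543) in DMSO and -0.22 (-0.42 to -0.03, adjusted p = 0.118) in erlotinib. With the replicate number as a block the DMSO value passed (adjusted p = 0.0453), as it did without GFP vector DMSO replicate 3 (0.0268), and without GFP vector DMSO replicate 1 the erlotinib value passed (0.0141). Both values passed among genes whose mean reached 6 (0.0146 and 0.0486), with trend and robust variance (0.00372 and 0.0351) and with array weights (0.0124 and 0.0481). Of the genes whose mean reached 6, 21.7% passed in DMSO and 39.4% in erlotinib. The groups ran from 8.35 ± 0.07 in erlotinib-treated GFP vector cells through 8.12 ± 0.01 in erlotinib-treated pre-miR-371 cells and 8.09 ± 0.22 in GFP vector cells with DMSO to 7.75 ± 0.02 (SD, n = 3) in pre-miR-371 cells with DMSO. The second and the third of these differed by less than the spread of the DMSO arrays. The other probe sets of PRKCA did not all share the direction of the main one. In DMSO and erlotinib 215195_at was at -0.34 and -0.06 and 215194_at at -0.03 and -0.02. On the other side, 206923_at was at 0.06 and 0.16 and 1560074_at at 0.01 and 0.29, the last on separate arrays. None of them passed over all probe sets. No pair of probe sets of a gene differed between the lines beyond the exact permutation test (0 of 20 pairs, with adjusted p = 0.05 for PRKCA against 206923_at and 215194_at).

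The other genes did not pass between the lines in a single treatment. PRKCZ was at -0.12 and -0.18, PRKD2 at -0.10 and -0.11, PRKCI at 0.09 and 0.05 and PRKCB at 0.17 and 0.15. PRKD1 was at 0.02 in DMSO and 0.33 in erlotinib (adjusted p = 0.0965), where it passed without pre-miR-371 DMSO replicate 3 (0.0329) and with only the groups compared in the fit (0.0395). PRKCZ in erlotinib passed among genes whose mean reached 6 (0.0308) and with trend and robust variance (0.0371).

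**Figure D4:**
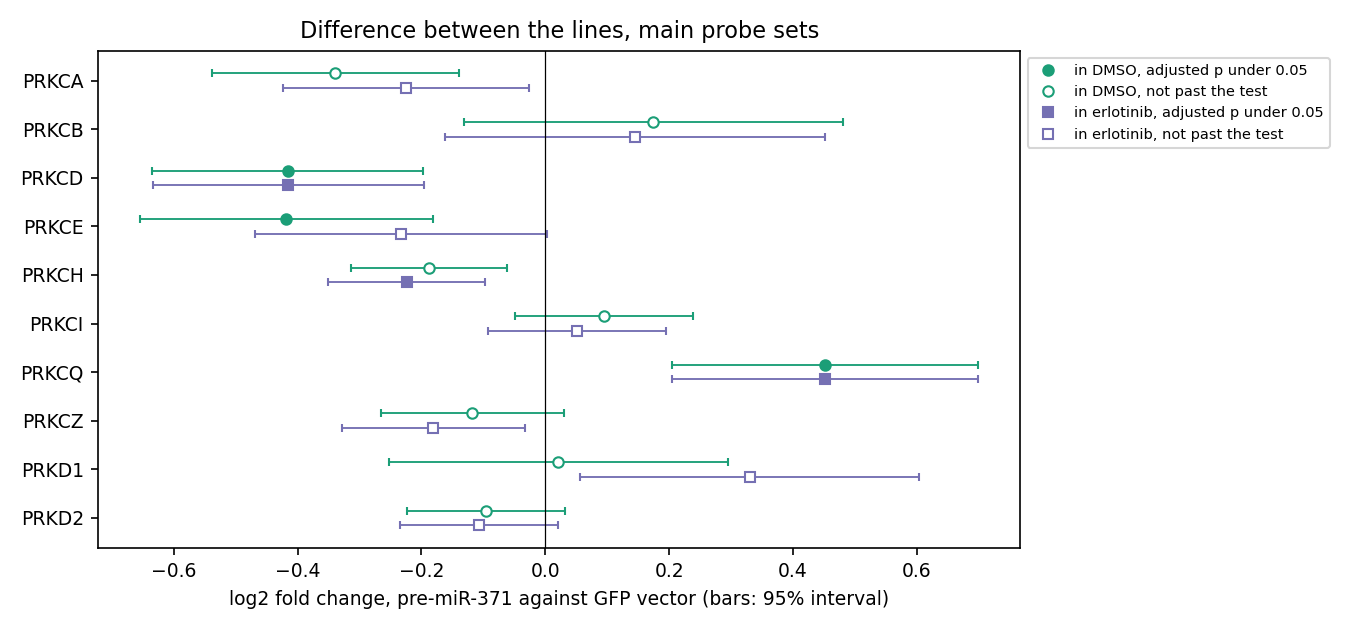
Log2 fold change of pre-miR-371 against GFP vector cells for the main probe sets, in DMSO (circles) and erlotinib (squares), with 95% intervals from limma; filled symbols passed at an adjusted p under 0.05. PRKCQ lies at 0.45 and PRKCD at -0.42 in both treatments.

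Averaged over both treatments, 6 of the 10 genes differed between the lines, 1 higher and 5 lower, where 21.1% of all genes differed, 8.03% higher and 13.1% lower. PRKCQ was higher, and PRKCD (-0.42, adjusted p = 0.00236), PRKCE (-0.33, 0.0119), PRKCA (-0.28, 0.0104), PRKCH (-0.21, 0.00518) and PRKCZ (-0.15, 0.0452) were lower. This average uses the same arrays as both comparisons above. The calls of PRKCA, PRKCE and PRKCH were lost with the mean of all probe sets (values of -0.05, -0.04 and -0.05). The call of PRKCZ was lost without any 1 of 10 arrays, all but pre-miR-371 DMSO replicate 1 and GFP vector erlotinib replicate 3 (adjusted p = 0.0505 to 0.103), and after repeated quantile normalization (-0.08, adjusted p = 0.239).

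The third question was whether the lines responded differently to erlotinib. None of the 10 genes passed the test of the difference of responses by limma, and 2% of all genes did. None had an unadjusted p under 0.05, beside 15% of all genes. Adjusted p ran from 0.457 for PRKD1 to 0.999 for PRKCQ. The largest difference was that of PRKD1, 0.31 (95% interval -0.08 to 0.70). The interval of PRKCD ran from -0.31 to 0.31, that of PRKCA from -0.17 to 0.40, that of PRKCZ from -0.27 to 0.15 and that of PRKCH from -0.22 to 0.14. Differences of such sizes therefore could not be told from none with 3 arrays per group. For 215195_at of PRKCA the difference was 0.28 (-0.02 to 0.58, adjusted p = 0.425 over all probe sets).

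The pathway around the family was read from lists chosen by role. Diacylglycerol kinases end the diacylglycerol signal by turning the lipid into phosphatidic acid. Of the 9 measured, 2 rose and 5 fell with erlotinib in each line. DGKE changed by -2.00 (SE 0.08, adjusted p = 1.14e-09) in GFP vector cells and -1.62 (adjusted p = 9.41e-09) in pre-miR-371 cells. DGKH changed by -1.04 and -0.50, DGKD by -0.86 and -0.66, and DGKA by 0.82 and 0.72. The responses of DGKH (difference 0.54, adjusted p = 0.00855) and DGKG (0.73, adjusted p = 0.0427) differed between the lines. In DMSO, DGKG (-0.52), DGKH (-0.41) and DGKQ (-0.25) were lower in pre-miR-371 cells.

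Of the other diacylglycerol receptors, 6 of 7 were measured, and with erlotinib 1 rose and 2 fell in GFP vector cells and 2 fell in pre-miR-371 cells. CHN1, a GTPase-activating protein for Rac, changed by -1.34 (adjusted p = 8.70e-09) and -1.08 (adjusted p = 7.83e-08). RASGRP1, a Ras exchange factor, changed by -0.89 and -0.83. Among the wider kinase family 3 of 5 were measured. PRKD3, the third protein kinase D, fell by 0.51 and 0.32, and PKN2, a kinase related to protein kinase C, rose by 0.54 in both lines.

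Of 9 measured genes of kinase maturation and turnover, 2 rose and 6 fell with erlotinib in GFP vector cells, where 23.4% of all genes fell. In pre-miR-371 cells 2 rose and 5 fell, where 22.2% of all genes fell. HSP90AB1 and CDC37, a chaperone and its co-chaperone for kinases, fell by 0.45 and 0.61 in GFP vector cells and changed by -0.44 and -0.56 in pre-miR-371 cells. PHLPP2 changed by -1.64 and -1.10 while PHLPP1 rose by 0.69 and 0.55. These phosphatases remove the hydrophobic-motif phosphate of protein kinase C. In erlotinib PHLPP1 was lower in pre-miR-371 cells (-0.46, adjusted p = 0.00513) and PHLPP2 was higher (0.47, adjusted p = 0.0136).

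Scaffolds and partners of the atypical isoforms changed in both directions, with 5 of 11 measured rising and 2 falling in GFP vector cells and 5 rising and 3 falling in pre-miR-371 cells. AKAP12, a scaffold that binds protein kinases A and C, changed by -2.78 (adjusted p = 2.58e-11) and -2.40 (adjusted p = 1.24e-10). The polarity gene LLGL2 rose by 0.83 and 0.72 and SQSTM1 by 0.64 and 0.58, and PARD3 changed by -0.72 and -0.37. PARD6B, which links the atypical isoforms to CDC42, was higher in pre-miR-371 cells by 0.59 (adjusted p = 0.0265) in DMSO and 0.67 (adjusted p = 0.00550) in erlotinib.

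Among the 11 substrate genes 4 rose and 3 fell with erlotinib in GFP vector cells, and 4 rose and 2 fell in pre-miR-371 cells. ADD3, an adducin of the membrane skeleton, rose by 2.14 (adjusted p = 4.75e-11) and 1.80 (adjusted p = 2.68e-10). MARCKS, the classical protein kinase C substrate that leaves the membrane when phosphorylated, rose by 0.88 and 0.73, and MARCKSL1 by 0.34 and 0.35. PPP1R14B, a phosphatase inhibitor, changed by -0.99 and -0.96. MARCKSL1 was also higher in pre-miR-371 cells, by 0.23 (adjusted p = 0.0224) in DMSO and 0.25 (adjusted p = 0.00634) in erlotinib. The lists hold 3 to 11 measured genes, and their shares stand beside 49.8% and 47% of all genes that changed with erlotinib.

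The genes whose main probe sets ran most like that of PRKCA over the 12 arrays were SCARNA15 (r = 0.982), C2orf42 (0.982), MED14 (0.981), CDC42BPB (0.974) and FSTL3 (0.974). These arrays share 4 groups, so the correlation describes the group pattern as well as the spread within groups. CDC42BPB, a kinase that acts below CDC42, changed by 0.24 and 0.26 with erlotinib, and FSTL3, a secreted binder of activin, by 0.25 and 0.55.

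Short promoter windows of the family were read from RefSeq on GRCh38.p14 (250 bases before to 50 after each start), and 17 windows matched the 10 genes. The motifs searched on both strands were AP-1 (TGANTCA), the cyclic AMP response element (TGACGTCA), FOXO (GTAAACA), NF-kB and the GC box (GGGCGG). The GC box was in 13 of 17 windows and in 45% of the 35116 windows of all genes. The 13 are windows and not genes, with PRKCD, PRKCZ and PRKD2 counted repeatedly. GC content ran from 51.3% for PRKCQ, at or above 34.1% of all windows, to 81.7% for a window of PRKD1, at or above 98.7%. The count of GC boxes was not corrected for it. AP-1 was in 0 of 17 (7.71% of all) and NF-kB in 0 of 17 (1.91% of all). The 2 rarer matches are shown with the motif in capitals, for PRKCZ, which rose with erlotinib, and PRKCQ, which was higher in pre-miR-371 cells. PRKCZ has several windows, and the response element lies in only 1 of them. Its start there is an internal one, inside the gene that begins at 2048504. Which start these cells use was not tested.
PRKCZ, chr1:2073602-2073629, plus strand, response element at -52 from the start: tgttttcctgTGACGTCAgcgtcagctc
PRKCQ, chr10:6580735-6580761, minus strand, FOXO motif in reverse complement at -105: aaaggaacaaTGTTTACaagccctttc
The response element was in 1.85% and the FOXO motif in 3.42% of all windows. A match of letters is a description and not a binding site.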

How the data were processed

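Gene expression was profiled on 12 Affymetrix Hgu133plus2 arrays (4 groups of 3, grouped by their labels, with dose and time as in the paper's methods). The authors made the deposited log2 values; RMA and affy are named in the submitters' processing notes, and the paper's methods name quantile normalization, with versions not given in the sources used here. Background correction and probe summary are therefore fixed in these values, and quantile scaling can hide a shift of all genes together.

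Of 54675 probe sets, 41097 had 1 symbol in the platform annotation, 1801 several and 11777 none; symbols were updated through Entrez identifiers, and 62 control probe sets were left out. Changes and their errors were estimated by lmFit and eBayes of limma 3.58.1 under R 4.3.3 (1 mean per group, all 12 arrays), with Benjamini-Hochberg adjustment over 19775 genes or 41091 probe sets. Probe-set gaps and gaps between isoforms were tested by exact two-sided permutation of arrays within lines or treatments (400 relabellings), adjusted over 20 and 9 pairs. On simulated data for erlotinib in GFP vector cells, with 200 of 19775 genes changed, limma recovered 24%, 72%, 100% and 100% at log2 changes of 0.3, 0.6, 1 and 2. In the real comparison 49.8% of all genes were called, and the adjustment depends on that share, so these figures do not give recovery there.

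The genes named are all members with their probe sets, DUSP6, up to 4 genes of each pathway list with the smallest p for erlotinib in GFP vector cells, and the 5 most like PRKCA; others were chosen after their values were seen. Members and lists were chosen with earlier results of these data known. Alternatives were the mean of all probe sets, every probe set tested, only the groups compared, the 9650 genes whose mean reached 6, the replicate block, repeated quantile normalization, median centring, eBayes with trend and robust, array weights, other thresholds, the methods' t-test, and each array left out. Drug-tolerant cells were not analysed here. Plots used matplotlib 3.10.9 (Python 3.11.15).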

Additional observations from a re-analysis of the deposited data

How the results depend on the processing

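Counts of the 10 genes that changed with erlotinib stayed within 1.5 times of 7 (GFP vector) and 8 (pre-miR-371) under every alternative but the added fold limit, which left 1 and 2, and ran from 6 to 8 and from 7 to 8 as single arrays were left out. The balance of directions was less stable: with the mean of all probe sets 3 rose and 4 fell in each line. The difference of responses stayed at 0 genes throughout, arrays left out included (0 to 0). The counts between the lines were less stable. In DMSO the 3 genes became 2 with the mean of all probe sets, repeated quantile normalization or median centring, 1 with every probe set tested or only the groups compared, 5 with trend and robust variance, array weights, an unadjusted p or the methods' t-test unadjusted, and 0 with the fold limit or the methods' t-test after adjustment. In erlotinib the 3 genes became 2 with the mean of all probe sets or only the groups compared, 5 with trend and robust variance or the methods' t-test unadjusted, 6 with an unadjusted p, and 0 with the fold limit or the methods' t-test after adjustment. The share of all genes called moved too, in DMSO from 5.25% to 11% with trend and robust variance, 19.2% with array weights, 1.24% with only the groups compared and 0.233% with the methods' t-test after adjustment, and in erlotinib from 16% to 21.3%, 18.7%, 12.1% and 6.81%. Among genes whose mean reached 6, 4 of 7 members passed in each treatment, beside 21.7% of such genes in DMSO and 39.4% in erlotinib. Leaving out single arrays gave 0 to 3 in DMSO and 0 to 4 in erlotinib. The 6 genes of the average became 4 with the mean of all probe sets and 0 with the fold limit, and 5 to 6 as arrays were left out. The pairs of probe sets past the permutation test ran from 5 to 8 for erlotinib and from 0 to 3 for the lines, and the pairs of PRKCA with other genes from 4 to 7; the 3 came without GFP vector DMSO replicate 3, GFP vector erlotinib replicate 3 or pre-miR-371 erlotinib replicate 1.

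The mean of all probe sets reversed PRKCA with erlotinib, to -0.35 and -0.19, and with it the gaps of PRKCA to PRKCB (-0.18), PRKCH (-0.0096), PRKCQ (-0.43) and PRKD2 (-0.36); this alternative averages probe sets that moved in opposite directions. With the replicate number as a block the counts were 7, 8, 4, 3, 0 and 6, and PRKCA in DMSO passed (adjusted p = 0.0453). Equal numbers were not taken as pairs in the main fit. Over 18 same-number pairs the deviations correlated at -0.057 to 0.198 and over 36 others at -0.203 to 0.108. Yet 10 of 12 arrays correlated best with their own number, and whether equal numbers share a batch was not tested. Low signal limits PRKCB, PRKD1 and PRKCQ, and the number of arrays limits what small differences can be called.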
